A study of Mus musculus with 16 samples.

Results

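Transcript levels of the machinery that brown adipocytes use to receive a beta-adrenergic signal and to end it were followed in cells in which lipolysis was switched on without an agonist. The set held 9 genes, chosen by symbol from the count table of 20295 genes: the beta-adrenergic receptors Adrb1 and Adrb3, the phosphodiesterases Pde3a, Pde3b, Pde4a, Pde4b and Pde4d, and the protein kinase A (PKA) subunits Prkar2b and Prkaca. All 9 passed the filter on low counts, which kept 12786 genes. The cells came from a wild-type line of mouse brown preadipocytes that keeps dividing because it carries SV40 large T antigen, and were differentiated in culture to day 7. Every group therefore carries that antigen and represents a cell line rather than tissue. They received DMSO vehicle, triacsin C (TC, spelled Triascin C in the labels) at 5 µM or etomoxir (ETO) at 50 µM for 1 h, and then SR-3420 at 10 µM or none for 3 h. SR-3420 binds ABHD5 and so activates the lipase ATGL without a receptor or cAMP. TC inhibits the long-chain acyl-CoA synthetases that activate fatty acids, and ETO inhibits CPT1, which admits activated fatty acids to mitochondria. The study's text gives another dose of SR-3420 than the labels do, and the dose given here is that of the labels. SR-3420 was thus added with and without an inhibitor of either step, and the 9 genes show the receptor pathway upstream of lipolysis in the same samples.

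In adipocytes, catecholamines act on beta-adrenergic receptors coupled to Gs, adenylyl cyclase makes cAMP, and cAMP frees the catalytic subunits of PKA from the regulatory ones, after which PKA substrates start lipolysis. Phosphodiesterases (PDEs) hydrolyse cAMP and end the signal. The beta-3 receptor encoded by Adrb3 is the receptor typical of fat cells, Prkar2b encodes the regulatory subunit RII-beta that is abundant there, and the PDE encoded by Pde3b is the one through which insulin opposes lipolysis. Early differentiation medium held IBMX, a general PDE inhibitor, which was left out of the later medium.

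RNA-seq libraries of 16 samples fell into 6 groups: Vehicle (n = 2, replicates 2 and 3), SR-3420 (n = 2, replicates 1 and 3), and TC, TC+SR-3420, ETO and ETO+SR-3420 (n = 3 each). Totals per library ran from 9452861 counts in TC replicate 1 to 25670624 in ETO+SR-3420 replicate 1. At this depth Adrb1 rested on 37 to 252 counts per library, and Adrb3 on 1431 to 13124, so the former carries the larger counting error. The labels do not say what a replicate is. The study describes the replicates of this RNA-seq as biologically independent experiments run in technical duplicate, and how duplicates entered a library is not given in the sources used here. The p-values measure the spread between these samples. Replicates of a group differed by more than sampling noise in all 14 pairs, with a chi-square per degree of freedom from 4.37 (TC replicates 1 and 3) to 156 (ETO+SR-3420 replicates 1 and 3).

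Libraries of the same group stood apart by the base composition of their genes. Over the 12681 genes with known GC content, a library's deviation from its group mean was rank-correlated across genes with GC content at rho = 0.783 in ETO+SR-3420 replicate 1, 0.767 in ETO replicate 1, 0.654 in TC replicate 2 and 0.656 in TC+SR-3420 replicate 1. It was -0.804 in ETO replicate 3, -0.735 in TC+SR-3420 replicate 3 and -0.733 in ETO+SR-3420 replicate 3. Genes are not independent replicates, and in the groups of 2 the values mirror each other (0.723 and -0.723 in Vehicle, 0.652 and -0.652 in SR-3420). The members lie on both sides of the median GC content of 50.3%: Adrb1 (59.9%), Pde4a (57.6%), Adrb3 (55.2%), Pde3a (55.1%) and Prkaca (54.9%) above it, and Pde4d (46.6%), Pde4b (45.5%), Prkar2b (44.9%) and Pde3b (43.1%) below it. Values with offsets for GC content, an alternative chosen after seeing the data, are therefore given wherever they change a call.

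**Figure D1:**
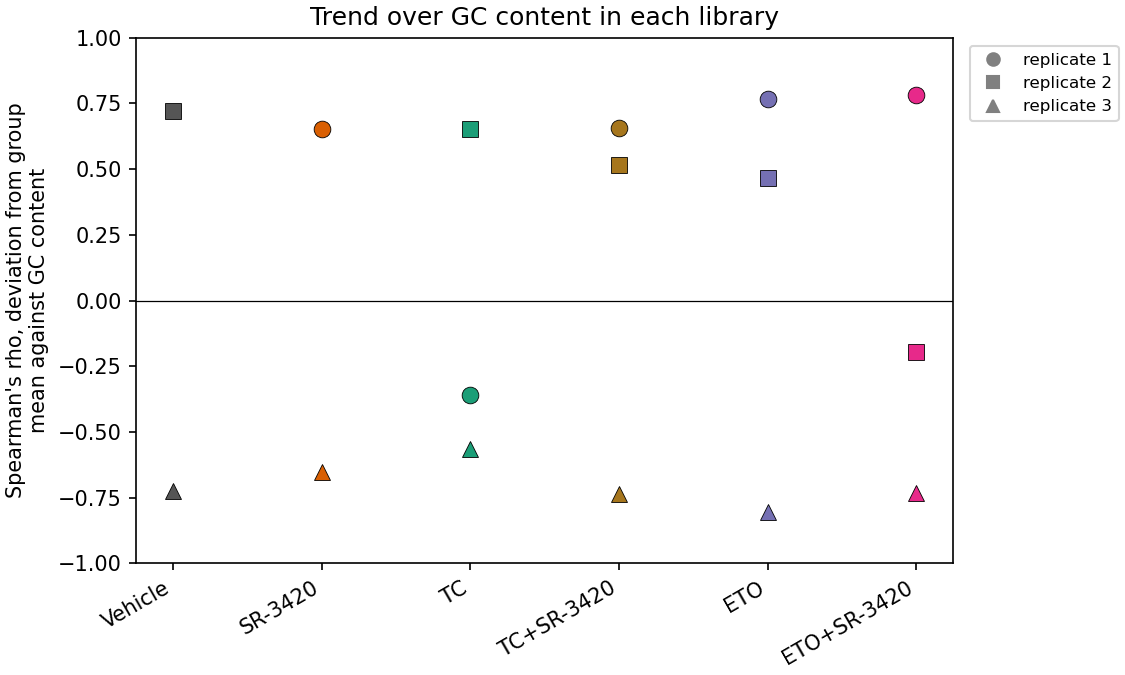
Spearman rho across genes between GC content and a library's deviation from its group mean (y axis), for each library by group (x axis), with a marker for the replicate number. Within every group the libraries lie on both sides of 0, which follows largely from taking deviations from the group mean. Values run from -0.804 (ETO replicate 3) to 0.783 (ETO+SR-3420 replicate 1).

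The labelled cell type was compared with its markers, as counts normalized by DESeq2's size factors. General adipocyte genes were abundant, with Fabp4, a fatty acid carrier, the most abundant of them in every sample. Of the brown adipocyte markers, Cox8b averaged 1172 normalized counts, Ppargc1a 630.1, Prdm16 303, Cidea 257 and Elovl3 167. The defining ones were low: Ucp1, the uncoupling protein of brown fat, ran from 6.43 to 49.9, and Dio2, the deiodinase, was at 0 in 12 of 16 samples and at most 1.74 in the others. Ptprc (at 0 in 3 samples) and Emr1 (at 0 in 7) of the macrophage markers, Pecam1 (2) and Cdh5 (3) of the endothelial ones, and Myog (3) and Ckm (6) of the muscle ones were at 0 in the numbers of samples given. The other markers of these lists were above 0 in every sample. They averaged 103 for Cd68, 16.3 for Csf1r, 20.7 for Kdr, 40.4 for Myod1 and 53.2 for Acta1. Markers of preadipocytes or fibroblasts averaged from 44.0 for Cd34 to 27323 for Col1a1. The cells thus carried adipocyte and fibroblast transcripts, with Dio2 at or near 0 and Ucp1 low in these samples.

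Per kilobase of counted transcript, the scale on which genes can be compared, the 9 members covered a wide range of levels. Adrb3 led with a mean of 2004 normalized counts per kb over the 16 samples, followed by Prkaca (1144), Prkar2b (1123) and Pde3b (407). The remaining 5 were much lower: Pde4a 79.3, Pde4b 55.1, Pde4d 36.2, Adrb1 31.2 and Pde3a 29.6. Across samples the ratio of the highest to the lowest level was widest for Adrb3 (6.45), Adrb1 (5.40), Pde3b (4.20) and Prkar2b (4.02), and narrowest for Prkaca (1.59).

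**Figure D2:**
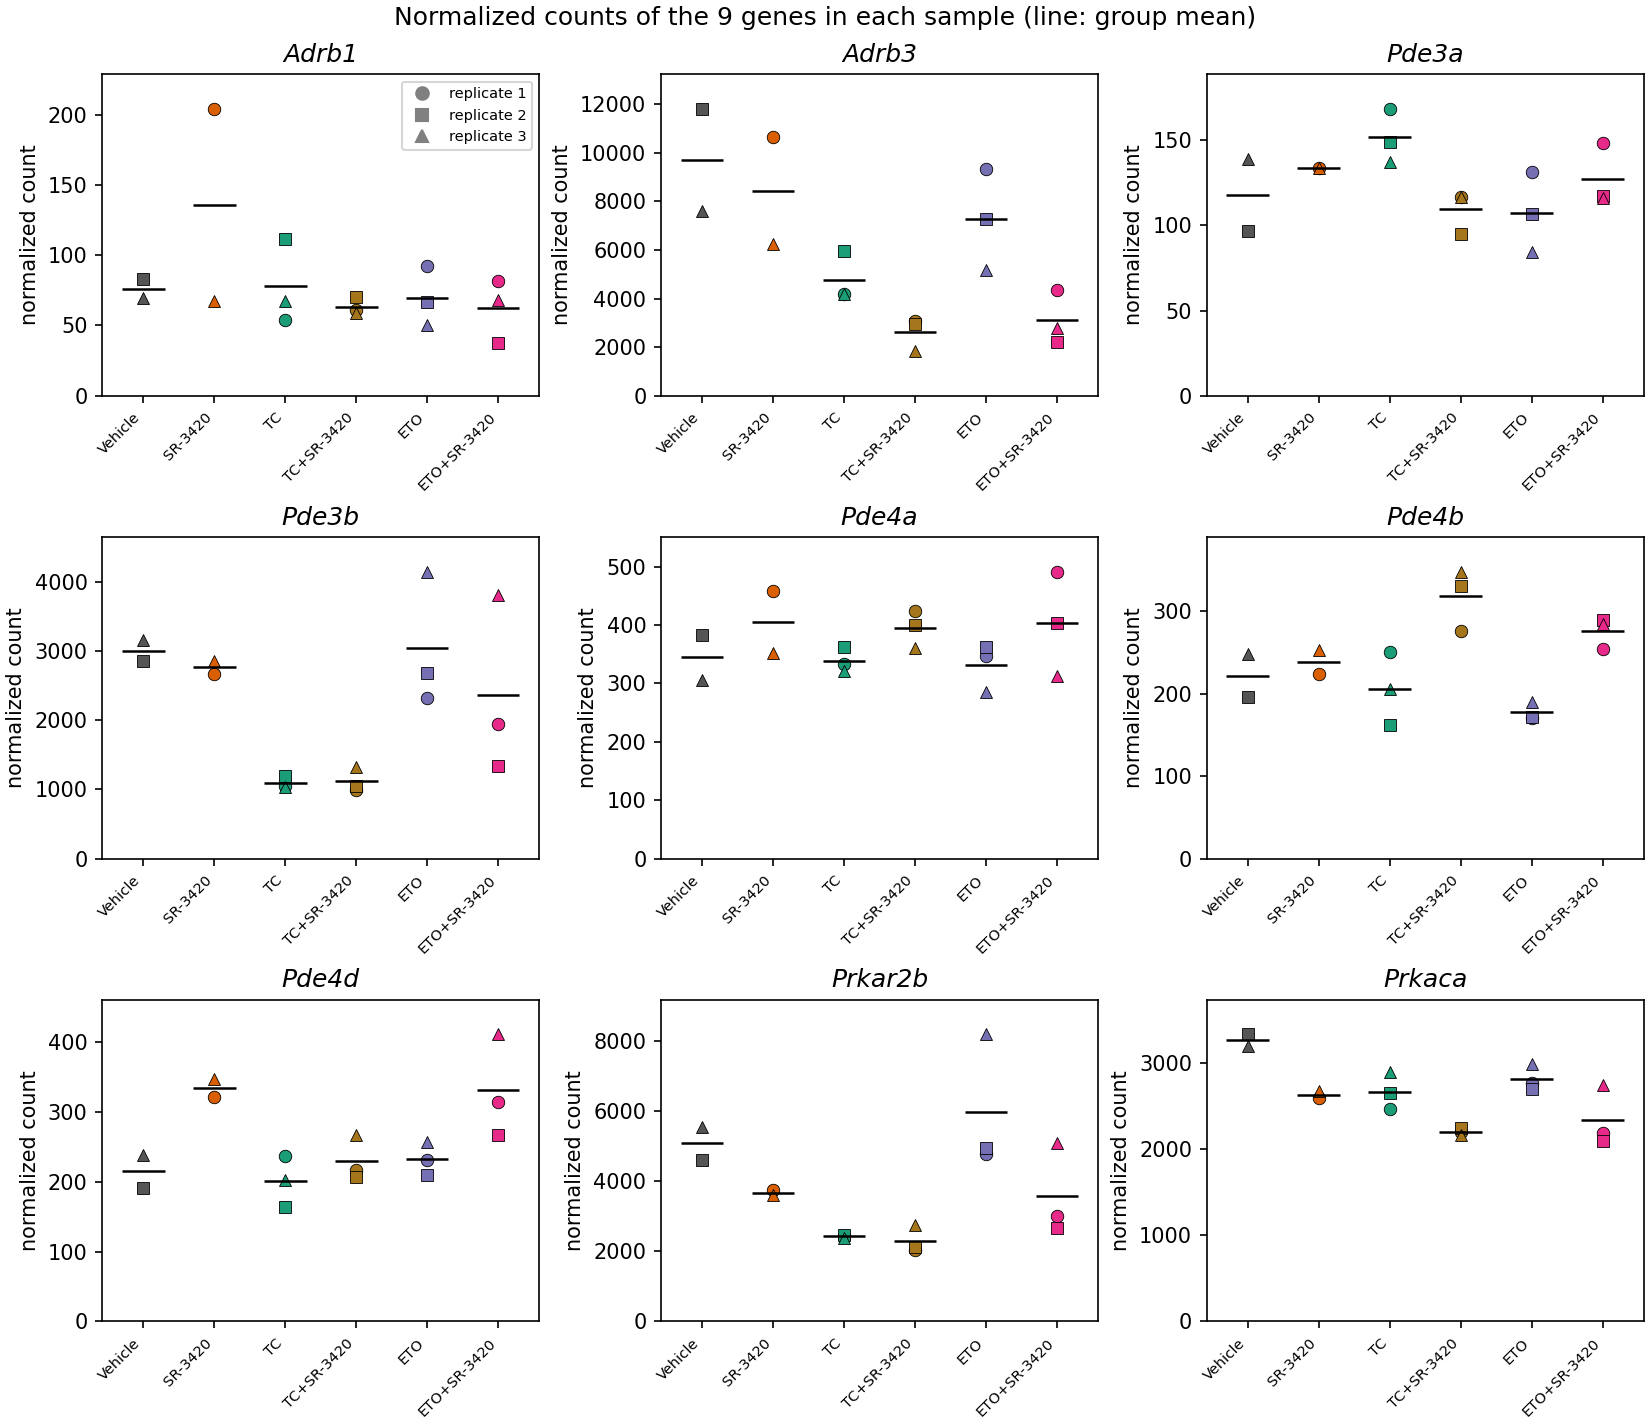
Normalized counts (y axis) of the 9 members in each of the 16 samples by group (x axis), with a line at each group mean. Adrb3 runs from 1832 to 11819.9, with the samples of each inhibitor plus SR-3420 below those of that inhibitor alone, and the 6 samples with TC are the lowest of the 16 for Pde3b, at up to 1329.

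Adrb3 (NM_013462) lies on the minus strand of chromosome 8 (mm9, 28336248 to 28340060), with 3 exons in its longest coding transcript. Its normalized counts were 11819.9 and 7599.8 in Vehicle, 10638 and 6247 in SR-3420, 4188, 5957 and 4193 in TC, 3065, 2962 and 1832 in TC+SR-3420, 9324, 7265 and 5190.5 in ETO and 4347, 2204 and 2770.0 in ETO+SR-3420. All 6 samples that received SR-3420 after an inhibitor lay below the samples of the same inhibitor alone, whereas the SR-3420 samples without an inhibitor overlapped the Vehicle ones. The group means ran in the order Vehicle (9709.8 ± 2984, SD, n = 2), SR-3420 (8442 ± 3104, n = 2), ETO (7260.0 ± 2067, n = 3), TC (4779.5 ± 1019.8, n = 3), ETO+SR-3420 (3107 ± 1110.3, n = 3) and TC+SR-3420 (2619.6 ± 684, n = 3), and each neighbouring pair in that order overlapped.

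Adrb1 (NM_007419, plus strand of chromosome 19, 56796862 to 56799352, a single exon) encodes the beta-1 receptor of the heart and, at lower levels, of fat. Normalized counts were 82.7 and 69.4 in Vehicle and 204 and 67.7 in SR-3420, and ran from 37.8 to 112 in the other 4 groups. SR-3420 replicate 1, at 204, stood far above the second SR-3420 sample, and no neighbouring groups were separate.

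Pde3b (NM_011055) lies on the plus strand of chromosome 7 (121558768 to 121681451), with 16 exons in its longest coding transcript. Its normalized counts were 2858 and 3158 in Vehicle, 2675 and 2860.2 in SR-3420, 1047, 1196 and 1031 in TC, 989.7, 1053 and 1329 in TC+SR-3420, 2320.2, 2682 and 4156 in ETO and 1948, 1334 and 3813 in ETO+SR-3420. The 6 samples that received TC were the 6 lowest, although the highest of them, at 1329 in TC+SR-3420 replicate 3, lay just under ETO+SR-3420 replicate 2 at 1334. The order of means was ETO (3053 ± 972), Vehicle (3008 ± 213), SR-3420 (2767 ± 131), ETO+SR-3420 (2365 ± 1291), TC+SR-3420 (1124 ± 180.2) and TC (1091 ± 91.2), and the only neighbours that did not overlap were ETO+SR-3420 and TC+SR-3420.

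Pde4b (NM_019840, plus strand of chromosome 4, 101927544 to 102279867, 17 exons) encodes a cAMP-specific PDE of the rolipram-sensitive family. The samples held normalized counts of 196 and 248 in Vehicle, 224 and 253 in SR-3420, 251, 162 and 206 in TC, 276, 331 and 348 in TC+SR-3420, 170.3, 172 and 190.3 in ETO and 255, 289.6 and 285 in ETO+SR-3420. The 6 samples with SR-3420 after an inhibitor were the 6 highest of the 16. TC+SR-3420 (319 ± 37.5) and ETO+SR-3420 (276 ± 18.9) overlapped each other and were separate from the next group, SR-3420 (238 ± 20.4), which overlapped Vehicle (222 ± 37.0); TC (206 ± 44.2) and ETO (178 ± 11.1) came last.

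Pde4d (NM_011056, plus strand of chromosome 13, 109444371 to 110746177, 15 exons) belongs to the same family. Its normalized counts were 192 and 239 in Vehicle, 322 and 347 in SR-3420, 237, 164 and 203 in TC, 217, 207 and 268 in TC+SR-3420, 231, 210.1 and 257 in ETO and 315, 268 and 411 in ETO+SR-3420. SR-3420 (334 ± 18) and ETO+SR-3420 (331 ± 73.2) lay above the other 4 groups, whose means from 201 to 233 overlapped their neighbours. TC+SR-3420 was among those 4, and its replicate 3, at 267.5, lay just under ETO+SR-3420 replicate 2 at 267.7.

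The other PDE members were Pde4a (NM_183408, plus strand of chromosome 9, 20970158 to 21017692) and Pde3a (NM_018779, plus strand of chromosome 6, 141197790 to 141447872). Pde4a ran from 285 to 491 normalized counts, its group means from 331 in ETO to 406 in SR-3420, and all neighbouring groups overlapped. Pde3a, a relative of Pde3b better known from heart and platelets, ran from 84.6 to 168, and its highest group, TC (152 ± 15.8), was separate from the next, SR-3420 (134 ± 0.0444).

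Prkar2b (NM_011158) lies on the minus strand of chromosome 12 (32643344 to 32746144), with 11 exons. By sample the normalized counts were 4601 and 5539 in Vehicle, 3737 and 3599.7 in SR-3420, 2430.4, 2461 and 2387 in TC, 2034, 2117 and 2745 in TC+SR-3420, 4777, 4946 and 8181 in ETO and 2997, 2667 and 5095 in ETO+SR-3420. ETO replicate 3 was the highest sample and ETO+SR-3420 replicate 3 the highest of its group, libraries whose GC trends were -0.804 and -0.733. In the order ETO (5968 ± 1918), Vehicle (5070.1 ± 663), SR-3420 (3668 ± 96.8), ETO+SR-3420 (3586 ± 1317), TC (2426 ± 37.6) and TC+SR-3420 (2299 ± 389), neighbours were separate between Vehicle and SR-3420 and between ETO+SR-3420 and TC. ETO+SR-3420 replicate 3, at 5095, nevertheless lay within the range of the Vehicle samples.

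Prkaca (NM_008854, plus strand of chromosome 8, 86496877 to 86520341, 10 exons) encodes the main catalytic subunit of PKA. Normalized counts were 3335 and 3197 in Vehicle, 2591 and 2674 in SR-3420, 2464, 2649 and 2896 in TC, 2200.2, 2251 and 2161 in TC+SR-3420, 2768, 2698 and 2986 in ETO and 2187, 2098 and 2745 in ETO+SR-3420. Both Vehicle samples were above every other sample, and the means of the other 5 groups, from 2817 in ETO to 2204 in TC+SR-3420, overlapped their neighbours.

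Promoters of a receptor (Adrb3), a PDE (Pde4b) and a PKA subunit (Prkaca) are shown so that the cAMP response element (CRE), the site that CREB reads, can be looked for in genes of the pathway itself. The windows of the other members are not reported here, so the 3 do not stand for the whole set. Each is a run of 300 bases, 250 before and 50 from the start of the gene model in the count table, read from the mm9 genome in the direction of transcription: Adrb3 at chr8:28340011-28340310 on the minus strand, and Pde4b at chr4:101927294-101927593 and Prkaca at chr8:86496627-86496926 on the plus strand. Capitals mark TGACG, the shortened form of the CRE, or CGTCA, the same letters on the opposite strand.
Adrb3: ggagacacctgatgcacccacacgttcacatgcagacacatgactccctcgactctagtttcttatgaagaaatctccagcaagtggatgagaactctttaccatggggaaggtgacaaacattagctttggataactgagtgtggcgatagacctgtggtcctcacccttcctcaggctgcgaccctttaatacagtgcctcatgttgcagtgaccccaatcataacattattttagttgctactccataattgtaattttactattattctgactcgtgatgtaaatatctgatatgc
Pde4b: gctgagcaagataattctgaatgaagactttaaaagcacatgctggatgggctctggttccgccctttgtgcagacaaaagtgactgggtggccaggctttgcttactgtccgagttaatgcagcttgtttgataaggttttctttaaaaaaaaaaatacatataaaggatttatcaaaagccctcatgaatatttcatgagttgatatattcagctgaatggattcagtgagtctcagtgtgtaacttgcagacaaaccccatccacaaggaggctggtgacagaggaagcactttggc
Prkaca: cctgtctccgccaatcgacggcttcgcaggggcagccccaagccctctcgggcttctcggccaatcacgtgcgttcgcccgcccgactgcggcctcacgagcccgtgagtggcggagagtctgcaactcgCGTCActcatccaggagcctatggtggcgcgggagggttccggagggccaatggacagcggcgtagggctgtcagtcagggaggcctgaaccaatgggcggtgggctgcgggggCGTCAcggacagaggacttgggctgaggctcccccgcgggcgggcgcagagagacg

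This short form was found 2 times in the Prkaca window and in neither of the other windows shown. Of the 20295 windows of the same length in the table, 24.9% hold it at least once. The full element, TGACG followed at once by TCA, of which the short form is a part, occurs in 2.53% of windows, and DR1, a pair of AGGTCA copies with 1 base between them that PPAR-RXR reads, in 0.0591%. Neither was found in the 3 windows shown, on either strand, which says only that these letters are not in these bases.

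Addition of SR-3420 without an inhibitor gave no call among the members. Differences were tested with edgeR's quasi-likelihood test over all 12786 genes with Benjamini-Hochberg adjustment at 0.05, here and below. They are log2 fold changes (log2FC). The largest was that of Adrb1 at 0.85 (SE 0.49, adjusted p = 0.338), which was -0.15 without SR-3420 replicate 1 and 1.44 without replicate 3. The next was that of Pde4d at 0.65 (SE 0.23, adjusted p = 0.106), a fold of 1.57 with both SR-3420 samples above both Vehicle samples. Prkar2b at -0.45 (SE 0.30, adjusted p = 0.416) and Prkaca at -0.29 (SE 0.14, adjusted p = 0.230) also had groups that did not overlap, with both SR-3420 samples below, while Adrb3 at -0.19 (SE 0.38, adjusted p = 0.826), from -0.62 to 0.17 with 1 library left out, Pde4b at 0.12 (SE 0.21, adjusted p = 0.792) and Pde3b at -0.10 (SE 0.37, adjusted p = 0.905) overlapped. The share of all genes whose groups did not overlap was not counted in any comparison. With 2 or 3 samples per group, separate groups can easily arise by chance and are given only as a description. The test called 0 of 9 members, against 7.54% of all genes; 1 member, Pde4d, had an unadjusted p under 0.05, and DESeq2 also called 0, against 12.4% of the genes for which it gave an adjusted p. With GC offsets Pde4d was called at 0.72 (adjusted p = 0.00652), and with a block for the replicate number at 0.55 (adjusted p = 0.0339). Over the alternative fits its adjusted p ran from 0.00652 to 0.374; these fits, called alternatives below, used other scalings, DESeq2, other filters, the compared groups alone, GC offsets, or 1 library fewer, and do not include fits with a block for the replicate number.

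After TC, SR-3420 lowered the transcript of Adrb3 and raised that of 1 PDE among the members, Pde4b. Adrb3 fell with a log2FC of -0.89 (SE 0.32, adjusted p = 0.0409), a fold of 0.539, and Pde4b rose with 0.61 (SE 0.17, adjusted p = 0.0128), a fold of 1.53; all 3 TC+SR-3420 samples lay beyond all 3 TC samples for both. Groups were also separate for Prkaca at -0.30 (SE 0.11, adjusted p = 0.0521) and Pde3a at -0.49 (SE 0.20, adjusted p = 0.0705), which missed the threshold, and overlapped for Pde4d at 0.18 (SE 0.19, adjusted p = 0.491), Pde3b at 0.02 (SE 0.30, adjusted p = 0.960) and Prkar2b at -0.10 (SE 0.24, adjusted p = 0.779). The calls were 2 of 9 members (22.2%) against 36.9% of all genes, 1 up (17.3% of genes) and 1 down (19.7%). The Adrb3 call was lost when any of the 6 libraries was left out, at -0.98 (adjusted p = 0.0554) without TC replicate 1, -0.70 (adjusted p = 0.154) without TC replicate 2, -0.98 (adjusted p = 0.0558) without TC replicate 3, and -1.01 (adjusted p = 0.0541), -0.94 (adjusted p = 0.0673) and -0.70 (adjusted p = 0.147) without TC+SR-3420 replicates 1, 2 and 3, with adjusted p from 0.00482 to 0.154 over the alternatives. The Pde4b call was lost without TC replicate 2 at 0.46 (adjusted p = 0.0648) or TC+SR-3420 replicate 3 at 0.53 (adjusted p = 0.0524) (alternatives 0.00204 to 0.0648). Prkaca passed with at least 10 counts required in every sample at -0.32 (adjusted p = 0.0335) or when only the compared groups were fitted at -0.29 (adjusted p = 0.0490) (alternatives 0.0335 to 0.850). GC offsets brought Prkaca close to no change at -0.048 (adjusted p = 0.850) and Pde3a to -0.23 (adjusted p = 0.344). A block for the replicate number called Prkaca at -0.29 (adjusted p = 0.0161) and Pde3a at -0.50 (adjusted p = 0.0231). Pde4a, at 0.20 (SE 0.18, adjusted p = 0.399) with overlapping groups, passed with GC offsets at 0.47 (adjusted p = 0.00277) (alternatives 0.00277 to 0.592).

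After ETO, SR-3420 moved Adrb3 and Pde4b in the same directions, and Prkar2b with them. Adrb3 fell with a log2FC of -1.23 (SE 0.32, adjusted p = 0.0128), a fold of 0.428, and Pde4b rose with 0.65 (SE 0.17, adjusted p = 0.0138), a fold of 1.56, both without overlap of the 3 ETO+SR-3420 and 3 ETO samples. Prkar2b fell with -0.72 (SE 0.24, adjusted p = 0.0426), a fold of 0.605, although its groups overlapped, since ETO+SR-3420 replicate 3 at 5095 exceeded ETO replicates 1 and 2. Pde4d at 0.52 (SE 0.19, adjusted p = 0.0589) had separate groups and missed the threshold. The calls were 3 of 9 members (33.3%) against 25.3% of all genes, 1 up (12.5%) and 2 down (12.8%). Without ETO replicate 1 and without ETO+SR-3420 replicate 2 the Adrb3 call was lost, at -1.0 (adjusted p = 0.0520) and -1.04 (adjusted p = 0.0677) (alternatives 7.44e-05 to 0.0677). Without ETO replicate 2 and without ETO+SR-3420 replicate 2 the Pde4b call was lost, at 0.63 (adjusted p = 0.0501) and 0.60 (adjusted p = 0.0543) (alternatives 0.00154 to 0.0580). That of Prkar2b was lost without ETO replicate 3, ETO+SR-3420 replicate 1 or ETO+SR-3420 replicate 2, at -0.45 (adjusted p = 0.166), -0.60 (adjusted p = 0.120) and -0.56 (adjusted p = 0.175) (alternatives 0.000955 to 0.176). Pde3b at -0.36 (SE 0.30, adjusted p = 0.425) and Prkaca at -0.26 (SE 0.11, adjusted p = 0.109) had overlapping groups and did not pass. Without ETO+SR-3420 replicate 3, Pde3b was called at -0.88 (adjusted p = 0.0155) (alternatives 0.0155 to 0.891) and Prkaca at -0.38 (adjusted p = 0.0176) (alternatives 0.0176 to 0.405). Pde4d was called without ETO+SR-3420 replicate 2 at 0.64 (adjusted p = 0.0466) and by DESeq2 at 0.51 (adjusted p = 0.0387) (alternatives 0.00839 to 0.215), and GC offsets called Pde4d at 0.49 (adjusted p = 0.00839). A block for the replicate number called Pde4d at 0.50 (adjusted p = 0.00573) and Prkaca at -0.26 (adjusted p = 0.0343). Library totals as scaling ended the Pde4b call at 0.58 (adjusted p = 0.0506), and no filter on low counts that of Prkar2b at -0.74 (adjusted p = 0.0577). A fit of the compared groups alone ended all 3, at -1.23 (adjusted p = 0.0546) for Adrb3, 0.62 (adjusted p = 0.0580) for Pde4b and -0.75 (adjusted p = 0.176) for Prkar2b.

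Averaged over the 3 arms, in which no sample is used more than once, SR-3420 lowered Adrb3 and both PKA subunits and raised the cAMP-specific PDEs Pde4b and Pde4d. Adrb3 fell with a log2FC of -0.77 (SE 0.20, adjusted p = 0.00606), a fold of 0.587. Pde4b rose with 0.46 (SE 0.11, adjusted p = 0.00316) and Pde4d with 0.45 (SE 0.12, adjusted p = 0.00678), each a fold of 1.37. Prkaca fell with -0.28 (SE 0.07, adjusted p = 0.00475), a fold of 0.821, and Prkar2b with -0.42 (SE 0.15, adjusted p = 0.0338), a fold of 0.745. The other members gave 0.25 (SE 0.11, adjusted p = 0.0833) for Pde4a, -0.15 (SE 0.19, adjusted p = 0.554) for Pde3b, 0.12 (SE 0.25, adjusted p = 0.719) for Adrb1 and -0.01 (SE 0.12, adjusted p = 0.941) for Pde3a. A block for the replicate number called Pde4a at 0.23 (adjusted p = 0.0132). The calls were 5 of 9 members (55.6%) against 46.2% of all genes, 2 up (22.8%) and 3 down (23.4%), a share near that of all genes. Adrb3, Pde4b, Pde4d and Prkaca were called in all 16 fits that left out a library, and Prkaca was not called with GC offsets, at -0.22 (adjusted p = 0.120) (alternatives 0.000219 to 0.120). Prkar2b was called in 6 of the 16. It was lost without Vehicle replicate 3 at -0.38 (adjusted p = 0.0918), SR-3420 replicate 1 at -0.43 (adjusted p = 0.0670) or 3 at -0.41 (adjusted p = 0.0770), TC replicate 1 at -0.42 (adjusted p = 0.0519) or 2 at -0.42 (adjusted p = 0.0517), TC+SR-3420 replicate 1 at -0.39 (adjusted p = 0.0623) or 2 at -0.41 (adjusted p = 0.0723), ETO replicate 3 at -0.33 (adjusted p = 0.0552), and ETO+SR-3420 replicate 1 at -0.38 (adjusted p = 0.0561) or 2 at -0.37 (adjusted p = 0.0630), and with no filter on low counts at -0.41 (adjusted p = 0.0565) (alternatives 0.000762 to 0.0918). Pde4a passed without ETO+SR-3420 replicate 3 at 0.30 (adjusted p = 0.0261) and with GC offsets at 0.26 (adjusted p = 0.00467) (alternatives 0.00467 to 0.233).

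**Figure D3:**
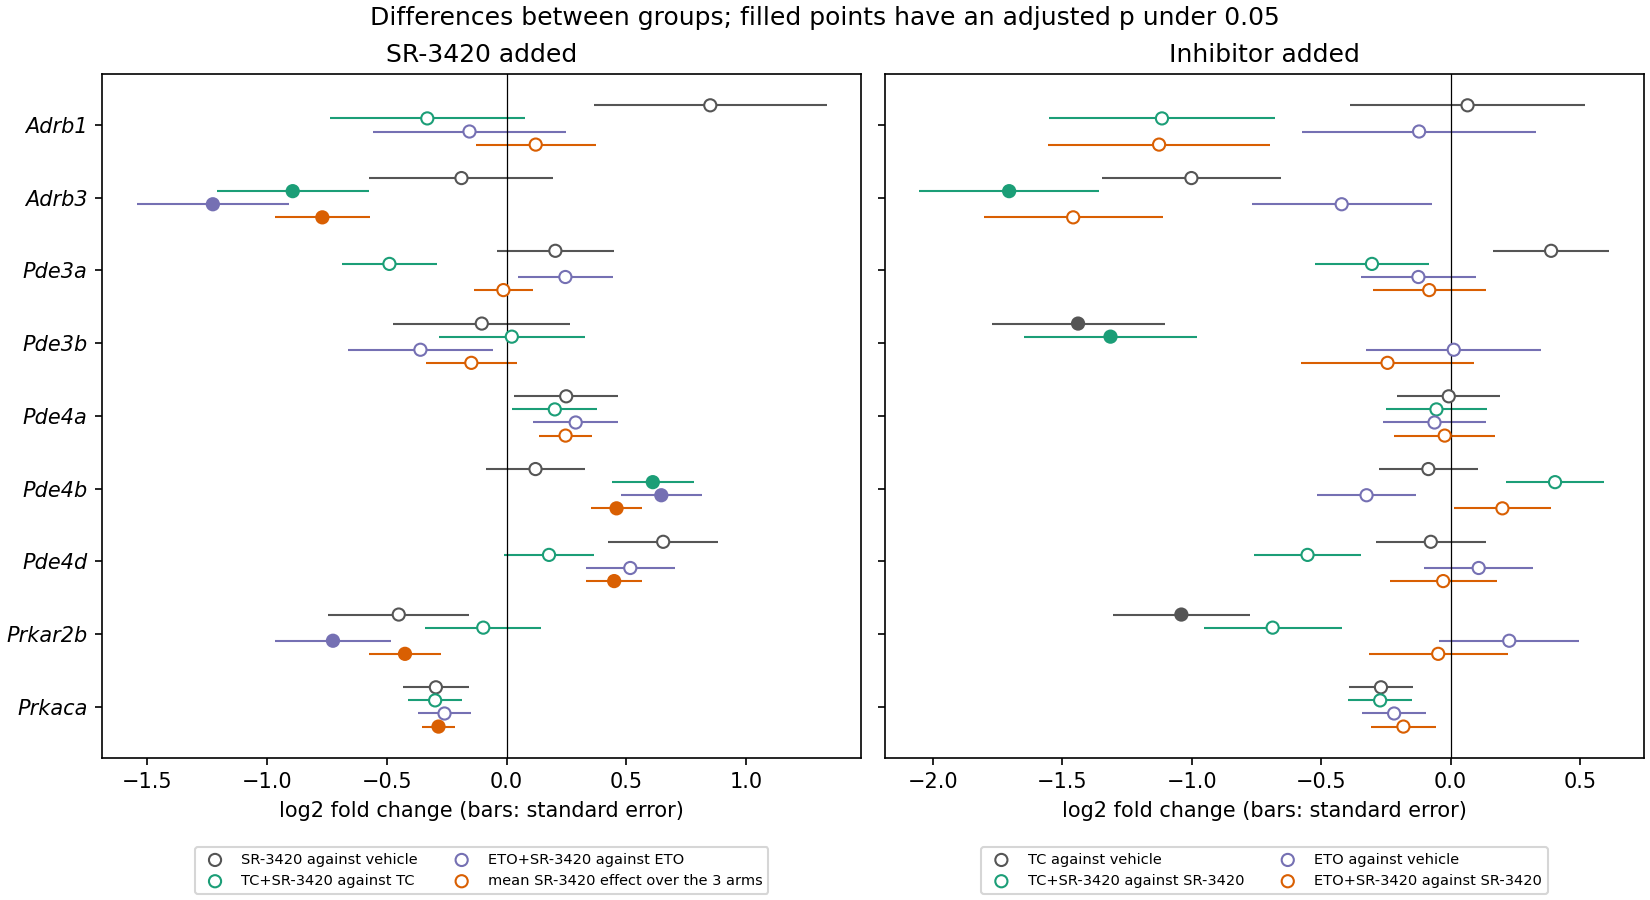
Log2FC (x axis) of the 9 members (y axis) with SE bars, for SR-3420 added in each of the 3 arms and on average (left) and for an inhibitor added (right); filled points have an adjusted p under 0.05. Adrb3 is filled at -0.89 after TC, -1.23 after ETO and -0.77 on average, and Pde3b at -1.44 for TC against Vehicle.

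General adipocyte and fibroblast transcripts moved with the same treatment. In the average over the arms all 7 adipocyte markers fell, against 23.4% of all genes (median log2FC -0.80, against 0.01 over all genes), among them Adipoq at -1.17 (SE 0.13, adjusted p = 1.05e-05), Fabp4 at -0.90 (SE 0.14, adjusted p = 0.000174) and Plin1, a lipid droplet protein, at -0.80 (SE 0.19, adjusted p = 0.00350). Their summed normalized counts were 264520 and 224854 in Vehicle, 211133 and 172431 in SR-3420, 244927, 275642 and 252857 in TC, 107647, 103927 and 100684 in TC+SR-3420, 247648, 223880 and 233652 in ETO, and 147111, 93746 and 157502 in ETO+SR-3420. All 8 fibroblast markers rose, against 22.8% of all genes (median 0.60), with Col1a1, a collagen and the most abundant of them in every sample, at 1.14 (SE 0.21, adjusted p = 0.000736). They summed to 26128 and 22831 in Vehicle, 55839 and 40401 in SR-3420, 35834, 31513 and 27431 in TC, 64441, 53743 and 41914 in TC+SR-3420, 31423, 22830.3 and 15696 in ETO, and 66776, 47409 and 32607 in ETO+SR-3420. Adrb3, Prkar2b and Prkaca fell in this average as well. The part of these markers in the results was not tested, and fewer cells of a type and less RNA per cell cannot be told apart in bulk samples. Among the brown markers 1 of 6 tested fell, Cox8b at -1.41 (SE 0.11, adjusted p = 5.46e-07), and 1 rose, Ucp1, at a mean of 29.8 normalized counts, a call lost without Vehicle replicate 3 or SR-3420 replicate 1. Their sums were 3658 and 2788 in Vehicle, 2918 and 2569 in SR-3420, 2599, 3554 and 3218 in TC, 1422, 1602 and 1354 in TC+SR-3420, 3022, 3157 and 2992 in ETO, and 1911, 1686 and 2504 in ETO+SR-3420, with Cox8b or Ppargc1a the most abundant.

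By comparison, the adipocyte markers stood beside the members as follows. After TC, SR-3420 lowered 6 of 7 (19.7% of all genes fell; list median -1.33), while Adrb3 fell, Prkaca was at -0.30 (SE 0.11, adjusted p = 0.0521) and Prkar2b at -0.10 (SE 0.24, adjusted p = 0.779). After ETO it lowered 5 of 7 (12.8% of all genes; median -0.85), while Adrb3 and Prkar2b fell. This count was 3 without ETO replicate 1 or 2 or ETO+SR-3420 replicate 3, and 2 without ETO+SR-3420 replicate 2. Without an inhibitor 1 of 7 fell (2.79% of all genes; median -0.25), Pparg, the nuclear receptor of adipocyte differentiation, at -0.82 (SE 0.21, adjusted p = 0.0327), a call lost without any of the 4 libraries (alternatives 0.000972 to 0.242). With TC alone Pparg was again the 1 of 7 to fall (6.94% of all genes; median -0.00326), at -1.48 (SE 0.19, adjusted p = 0.000182), while Pde3b and Prkar2b fell. The sum, of which Fabp4 is the largest part, overlapped that of Vehicle there. In TC+SR-3420 against SR-3420, 3 of 7 fell (3.55% of all genes; median -1.04), or 0 without SR-3420 replicate 1 or TC+SR-3420 replicate 2 or 3, while Adrb3 and Pde3b fell. For ETO alone edgeR called 0 of 7 (0 at an unadjusted p under 0.05 and 0 by DESeq2), and for ETO+SR-3420 against SR-3420 also 0 (4 and 0).

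TC alone lowered Pde3b and Prkar2b. Pde3b fell with a log2FC of -1.44 (SE 0.33, adjusted p = 0.0121), a fold of 0.369, and Prkar2b with -1.04 (SE 0.27, adjusted p = 0.0209), a fold of 0.486, in each case with all 3 TC samples below both Vehicle samples. Adrb3 at -1.0 (SE 0.35, adjusted p = 0.0818) and Prkaca at -0.27 (SE 0.12, adjusted p = 0.205) had separate groups as well and missed the threshold, and the other members lay between -0.09 for Pde4b and 0.39 for Pde3a with overlapping groups. A block for the replicate number called Adrb3 at -1.10 (adjusted p = 0.00227). The calls were 2 of 9 members, both down, against 11.7% of all genes and 6.94% for falls. The Pde3b call was lost without Vehicle replicate 2 at -1.51 (adjusted p = 0.0504) or replicate 3 at -1.37 (adjusted p = 0.0858) (alternatives 0.000772 to 0.0858). The call of Prkar2b was lost without any of the 5 libraries, at -1.17 (adjusted p = 0.0578) and -0.91 (adjusted p = 0.169) without Vehicle replicates 2 and 3 and -1.04 (adjusted p = 0.0620), -1.05 (adjusted p = 0.0601) and -1.02 (adjusted p = 0.0666) without TC replicates 1, 2 and 3 (alternatives 0.000656 to 0.169). Adrb3 passed with library totals as scaling at -1.07 (adjusted p = 0.0313), by DESeq2 at -1.02 (adjusted p = 0.0404), in a fit of the compared groups at -1.06 (adjusted p = 0.0253) and with GC offsets at -1.19 (adjusted p = 0.000227) (alternatives 0.000227 to 0.390).

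ETO alone gave no call among the members. The log2FC was -0.42 (SE 0.35) for Adrb3, -0.32 (SE 0.19) for Pde4b, -0.22 (SE 0.12) for Prkaca and 0.23 (SE 0.27) for Prkar2b, all with an adjusted p of 1.00, and the groups of Pde4b and Prkaca did not overlap. Of the 9 members 0 were called by edgeR, 0 had an unadjusted p under 0.05 and DESeq2 called 0, against 0.0235% of all genes by edgeR and 0.157% by DESeq2. TC and ETO against Vehicle, and SR-3420 against Vehicle, share the same pair of Vehicle libraries.

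With SR-3420 present, Adrb3 and Pde3b were lower with TC than without it. Against SR-3420 alone, Adrb3 in TC+SR-3420 fell with a log2FC of -1.71 (SE 0.35, adjusted p = 0.0144), a fold of 0.307, and Pde3b with -1.31 (SE 0.33, adjusted p = 0.0405), a fold of 0.402, and for both all 3 TC+SR-3420 samples lay below both SR-3420 samples. Groups were also separate for Prkar2b at -0.69 (SE 0.27, adjusted p = 0.172), Pde4d at -0.55 (SE 0.21, adjusted p = 0.158), Pde4b at 0.40 (SE 0.19, adjusted p = 0.262), Prkaca at -0.27 (SE 0.12, adjusted p = 0.250) and Pde3a at -0.30 (SE 0.22, adjusted p = 0.472), none of which passed. Of these, a block for the replicate number called Pde4d at -0.46 (adjusted p = 0.0352) and Prkar2b at -0.64 (adjusted p = 0.0242). The calls were 2 of 9 members, both down, against 4.58% of all genes and 3.55% for falls. The Adrb3 call was lost without SR-3420 replicate 1 at -1.28 (adjusted p = 0.236), without TC+SR-3420 replicate 3 at -1.51 (adjusted p = 0.0683) and in a fit of the compared groups at -1.71 (adjusted p = 0.0698) (alternatives 0.000132 to 0.236). The call of Pde3b was lost without any of the 5 libraries, at -1.37 (adjusted p = 0.219) and -1.26 (adjusted p = 0.115) without SR-3420 replicates 1 and 3 and -1.22 (adjusted p = 0.116), -1.27 (adjusted p = 0.139) and -1.46 (adjusted p = 0.0790) without TC+SR-3420 replicates 1, 2 and 3, as it was with library totals as scaling at -1.26 (adjusted p = 0.0596) (alternatives 0.000535 to 0.219). Adrb1, at -1.12 (SE 0.44, adjusted p = 0.178), passed without SR-3420 replicate 3 at -1.70 (adjusted p = 0.0459) (alternatives 0.0459 to 0.996). GC offsets called Pde4d at -0.65 (adjusted p = 0.00797) (alternatives 0.00797 to 0.495) and Prkar2b at -0.88 (adjusted p = 0.00232) (alternatives 0.00232 to 0.628).

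For ETO+SR-3420 against SR-3420 alone, a comparison that shares the SR-3420 libraries with the preceding one, Adrb3 gave -1.46 (SE 0.35, adjusted p = 0.216) with groups that did not overlap, Adrb1 -1.13 (SE 0.43, adjusted p = 0.443) and Pde4b 0.20 (SE 0.19, adjusted p = 0.595), the last also without overlap. The groups of Adrb1 and of the other 6 members overlapped. Of the 9 members edgeR called 0, with 2 at an unadjusted p under 0.05, and DESeq2 called 1, against 0.00782% of all genes by edgeR and 0.702% by DESeq2. With a block for the replicate number edgeR called Adrb3 at -1.47 (adjusted p = 0.0180). The DESeq2 call was Adrb3 at -1.44 (adjusted p = 0.0227), which GC offsets called too at -1.22 (adjusted p = 0.0105) (alternatives 0.0105 to 1.00).

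Whether an inhibitor changed the response to SR-3420 was tested as the interaction. For TC against no inhibitor the difference of log2FC was -0.70 (SE 0.50, adjusted p = 0.492) for Adrb3, 0.49 (SE 0.27, adjusted p = 0.384) for Pde4b, -0.48 (SE 0.30, adjusted p = 0.443) for Pde4d, -1.18 (SE 0.63, adjusted p = 0.372) for Adrb1 and -0.69 (SE 0.31, adjusted p = 0.288) for Pde3a. It was 0.35 (SE 0.38, adjusted p = 0.640) for Prkar2b and, for Prkaca, -0.00 (SE 0.18, adjusted p = 0.995). Of the 9 members 0 were called by edgeR and 0 by DESeq2, and 1 had an unadjusted p under 0.05, against 2.51% of all genes called by edgeR and 6.23% by DESeq2. For ETO the difference was -1.04 (SE 0.50) for Adrb3, -1.0 (SE 0.63) for Adrb1, 0.52 (SE 0.27) for Pde4b and -0.27 (SE 0.38) for Prkar2b, with adjusted p from 0.988 to 0.991 over the 9; edgeR and DESeq2 called 0 of 9, 0 had an unadjusted p under 0.05, and edgeR called 0% of all genes, with 307 at an unadjusted p under 0.05 and 9 (0.0675%) called by DESeq2. The responses of Adrb3 and Pde4b after an inhibitor were therefore not shown to differ from those without one.

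The make-up of the PDE and PKA families was followed as shares of their transcripts. Of the summed level per kb of 16 cAMP-hydrolysing PDE genes, Pde3b made up 42.1% ± 1.97 in Vehicle (mean ± SD), 35.4% ± 1.64 in SR-3420, 42.9% ± 7.87 in ETO, 30.1% ± 12.7 in ETO+SR-3420, 22.2% ± 2.47 in TC and 17.4% ± 2.45 in TC+SR-3420. Pde2a, a PDE stimulated by cGMP, was the most abundant in the TC groups at 28.6% ± 1.43 and 29.0% ± 3.21, against 16.8% ± 3.40 in Vehicle. The sum over the 16 genes was 1351 per kb in Vehicle, 1478 in SR-3420, 931 in TC, 1222 in TC+SR-3420, 1327 in ETO and 1438 in ETO+SR-3420. Pde4b and Pde4d were small parts of it, at 3.75% ± 0.537 and 2.26% ± 0.298 in Vehicle and 4.46% ± 0.786 and 3.25% ± 0.30 in ETO+SR-3420. Prkar2b was 42.6% ± 2.39 of the PKA regulatory transcripts in Vehicle, 32.4% ± 0.349 in SR-3420, 46.6% ± 5.17 in ETO, 29.6% ± 7.34 in ETO+SR-3420, 25.6% ± 0.531 in TC and 21.6% ± 2.71 in TC+SR-3420. Prkaca stayed between 75.2% ± 1.54 in ETO+SR-3420 and 85.0% ± 0.919 in TC of the catalytic ones. These shares were not tested.

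**Figure D4:**
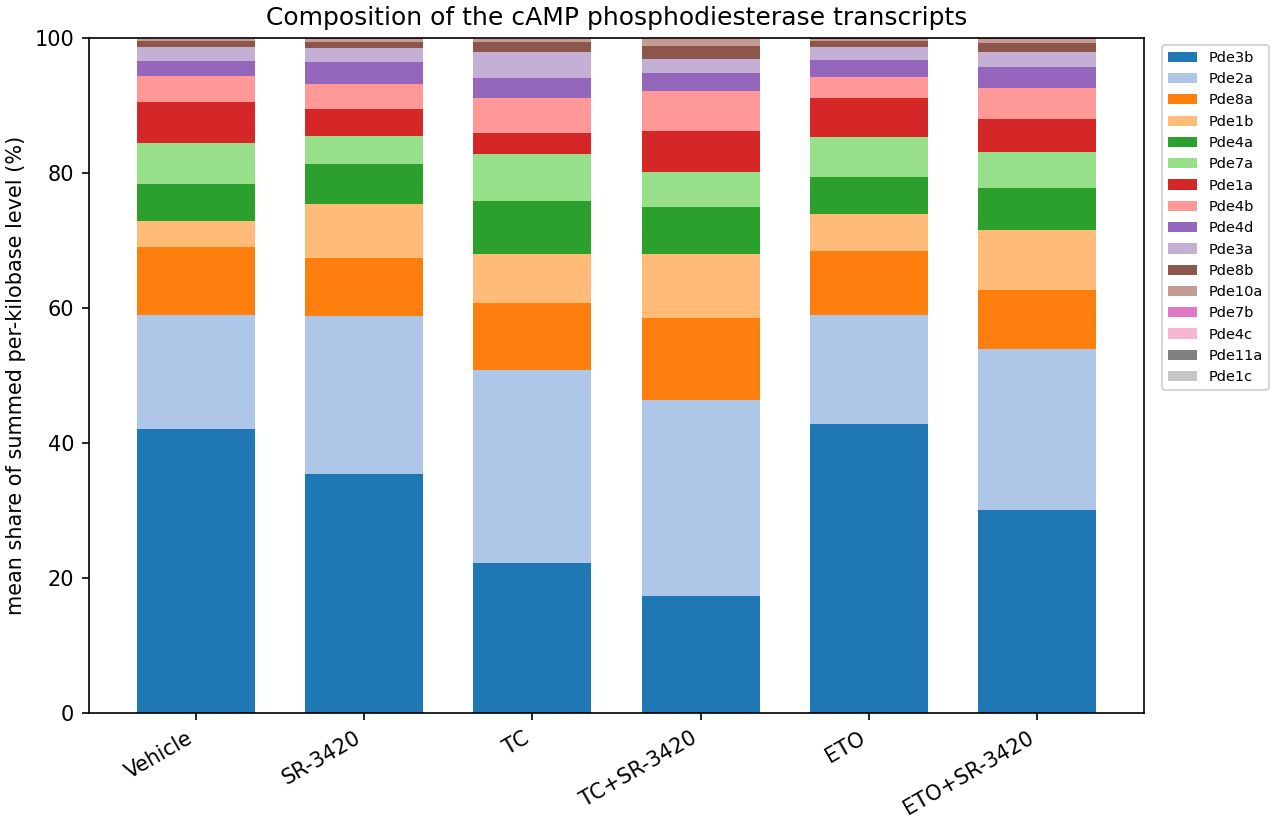
Stacked bars of the mean share (y axis, percent) of the summed level per kb that each of 16 cAMP PDE genes takes in each group (x axis). Pde3b takes 42.1% in Vehicle, 22.2% in TC and 17.4% in TC+SR-3420, and Pde2a 16.8%, 28.6% and 29.0%.

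The wider families were counted from lists of the pathway. These lists were chosen with earlier results of these data known, so their counts are a description. In the average over the arms 22.8% of all genes rose and 23.4% fell, which is the background of each list count for that average. Of 12 tested cAMP PDE genes of 16 listed, 7 rose with SR-3420 on average (median log2FC 0.35, against 0.01 over all genes), and 6 to 7 did in the fits that left out a library. Beside Pde4b and Pde4d they included Pde10a at 1.41 (SE 0.15, adjusted p = 9.2e-06), Pde1b, a calcium-dependent PDE, at 0.94 (SE 0.10, adjusted p = 5.2e-06), Pde2a at 0.57 (SE 0.14, adjusted p = 0.00403) and Pde8b at 0.56 (SE 0.14, adjusted p = 0.00582), each called in all 16 of those fits. Without an inhibitor Pde1b and Pde10a rose, against 4.75% of all genes, and 1 of these 2 was called without Vehicle replicate 2 or SR-3420 replicate 3. After TC 6 rose, against 17.3% of all genes. After ETO 5 rose (Pde10a, Pde1b, Pde8b, Pde2a and Pde4b), against 12.5%, with 2 called without ETO replicate 2 and 3 without ETO replicate 3 or ETO+SR-3420 replicate 2. Pde1b rose in each arm, at 1.24 (SE 0.19, adjusted p = 0.00169) without an inhibitor, 0.75 (SE 0.15, adjusted p = 0.00199) after TC and 0.82 (SE 0.15, adjusted p = 0.00184) after ETO. With TC alone 3 PDE genes fell, against 6.94% of all genes, namely Pde3b, Pde1a at -1.46 (SE 0.31, adjusted p = 0.00711) and Pde8a at -0.54 (SE 0.12, adjusted p = 0.00867). Of these 3, 1 was called without Vehicle replicate 2, Pde1a, and 0 without Vehicle replicate 3.

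Of 8 tested PKA subunit and inhibitor genes, 4 rose with SR-3420 on average (22.8% of all genes), with 2 called without Vehicle replicate 2. The members Prkar2b and Prkaca fell (23.4% of all genes; median of the list 0.22). Prkar1b, a regulatory subunit best known from neurons, rose at 0.96 (SE 0.11, adjusted p = 8.83e-06) and Prkar2a at 0.30 (SE 0.06, adjusted p = 0.000882), each in all 16 fits that left out a library. Of the other risers, Prkar1a at 0.19 (SE 0.06, adjusted p = 0.0206) was lost without Vehicle replicate 2 at 0.18, with library totals as scaling at 0.14 and with no filter at 0.20 (adjusted p over the alternatives 0.000784 to 0.152). Prkacb, a catalytic subunit, at 0.25 (SE 0.09, adjusted p = 0.0410) kept its call in 3 of the 16 fits, those without TC+SR-3420 replicate 1, ETO replicate 3 or ETO+SR-3420 replicate 1 (alternatives 0.000833 to 0.177). Regulatory transcripts thus moved in both directions, with RII-beta the one that fell.

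On average over the arms, where 22.8% of all genes rose and 23.4% fell, Adrb3 fell and 2 rose of 6 tested adrenergic receptor genes (median 0.01), Adra1b, an alpha-1 receptor, at 0.88 (SE 0.21, adjusted p = 0.00362) and Adra2a, an alpha-2 receptor, at 1.98 (SE 0.28, adjusted p = 8.78e-05). Adra2a, at a mean of 26.2 normalized counts, is named after its values were seen, as are Gnal, Gnaz, Popdc2 and Ucp1, which also averaged under 50. Of 4 tested receptors that act against cAMP through Gi, 3 fell (median -0.50), Hcar1, the lactate receptor, at -1.21 (SE 0.13, adjusted p = 5.85e-06), Ffar2 at -0.54 (SE 0.13, adjusted p = 0.00394) and the adenosine receptor Adora1 at -0.46 (SE 0.12, adjusted p = 0.00549). Hcar2 rose at 0.42 (SE 0.13, adjusted p = 0.0199). Among 8 desensitization genes Grk5, a receptor kinase, rose at 0.43 (SE 0.10, adjusted p = 0.00415) and Rgs2 fell at -0.95 (SE 0.19, adjusted p = 0.00128) (median -0.14), with 2 falls in place of 1 without Vehicle replicate 3, TC+SR-3420 replicate 2 or ETO replicate 3. Of 6 G alpha genes Gnal and Gnaz fell (median 0.21), and 1 of these 2 was called without Vehicle replicate 3. Of 8 adenylyl cyclases Adcy3 rose at 0.62 (SE 0.19, adjusted p = 0.0178) (median 0.02), with 0 cyclases called up without Vehicle replicate 3 or SR-3420 replicate 1 and 2 without Vehicle replicate 2, SR-3420 replicate 3 or ETO replicate 1.

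Downstream of cAMP, 4 of 11 A-kinase anchoring protein genes rose with SR-3420 on average, against 22.8% of all genes (median 0.11), Akap2 at 1.1 (SE 0.08, adjusted p = 2.63e-07), Akap13 at 0.62 (SE 0.07, adjusted p = 6.17e-06), Akap12 at 0.34 (SE 0.06, adjusted p = 0.000457) and Akap8 at 0.18 (SE 0.06, adjusted p = 0.0337). The Akap8 call held in 8 of 16 left-out fits and was lost without either Vehicle replicate, SR-3420 replicate 1, TC replicate 3, TC+SR-3420 replicate 1 or 2, or ETO replicate 1 or 2 (alternatives 0.0114 to 0.123). Akap7 fell at -0.55 (SE 0.20, adjusted p = 0.0385), a call that held in 8 of 16 and was lost without Vehicle replicate 3, SR-3420 replicate 1, TC replicate 3, TC+SR-3420 replicate 1 or 2, ETO replicate 3, or ETO+SR-3420 replicate 1 or 2 (alternatives 0.000113 to 0.111). Of 11 other effectors and CREB factors 4 rose, again beside 22.8% of all genes (median 0.11), Atf1 at 0.45 (SE 0.07, adjusted p = 0.000217), Crtc2 at 0.47 (SE 0.13, adjusted p = 0.00826), Crtc3 at 0.47 (SE 0.13, adjusted p = 0.00881) and Crebbp at 0.37 (SE 0.13, adjusted p = 0.0338). The Crebbp call held in 8 of 16 and was lost without Vehicle replicate 3, SR-3420 replicate 1, TC replicate 2 or 3, TC+SR-3420 replicate 1, ETO replicate 2 or 3, or ETO+SR-3420 replicate 1 (alternatives 0.000131 to 0.126). Popdc2 fell at -1.26 (SE 0.35, adjusted p = 0.00981), with 0 of the list called down without Vehicle replicate 3 and 2 without TC+SR-3420 replicate 3, ETO replicate 2 or ETO+SR-3420 replicate 3. Genes known to be induced by cAMP had the largest median of the pathway lists (1.37). Of 11 tested 10 rose, against 22.8% of all genes, with Areg, an EGF-family ligand, at 4.81 (SE 0.33, adjusted p = 2.07e-07), Nr4a3 at 2.64 (SE 0.27, adjusted p = 4.54e-06), Fosb at 2.47 (SE 0.16, adjusted p = 9.47e-08) and Fos at 2.25 (SE 0.15, adjusted p = 2.06e-07). By arm 7 rose without an inhibitor (4.75% of all genes), or 4 without Vehicle replicate 3, 7 after TC (17.3%) and 8 after ETO (12.5%). Because this list too was chosen with earlier results of these data known, its median and counts describe the genes and do not test the pathway. Many of these genes also respond to other signals, and neither cAMP nor PKA activity was measured in these samples. The study reports, from HSL phosphorylation in brown adipocytes, that SR-3420 did not activate PKA. That blot came from 1 independent experiment, with another dose of SR-3420 than the labels give for these samples.

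With TC alone the other pathway lists were counted against 4.77% of all genes that rose and 6.94% that fell (median log2FC 0.07). Of the Gi-coupled receptors 3 of 4 fell (median -0.75), Ffar2 at -1.16 (SE 0.23, adjusted p = 0.00445), Hcar1 at -0.77 (SE 0.22, adjusted p = 0.0344) and Adora1 at -0.73 (SE 0.20, adjusted p = 0.0318). The count was 0 without Vehicle replicate 2 and 1 without any of the other 4 libraries. Of the desensitization genes 3 of 8 fell (median -0.60), the arrestin gene Arrb1 at -0.72 (SE 0.12, adjusted p = 0.00179), Rgs2 at -1.26 (SE 0.34, adjusted p = 0.0256) and Grk5 at -0.71 (SE 0.19, adjusted p = 0.0240). Here it was 1 without Vehicle replicate 3 or TC replicate 2. Of 8 cyclases 1 fell, Adcy9 at -1.91 (SE 0.19, adjusted p = 2.43e-05), in all 5 fits that left out a library, and the list median was -0.00304. Prkar2b was the 1 of 8 PKA genes to fall (median -0.17). Anchoring proteins went both ways, with 3 of 11 up and 3 down (median -0.17). Akap12 rose at 0.59 (SE 0.11, adjusted p = 0.00300) and Akap13 fell at -0.90 (SE 0.12, adjusted p = 0.000190), each in all 5 fits. The falls were 1 without any of the 5 libraries and the rises 1 without either Vehicle replicate or TC replicate 2. Of 11 other effectors and CREB factors (median -0.31) Popdc2 rose, a call lost without Vehicle replicate 2. Ep300 fell at -0.44 (SE 0.11, adjusted p = 0.0198), a call lost without either Vehicle replicate or TC replicate 2 or 3. Of 11 cAMP-induced genes (median 0.59) Fos rose at 1.19 (SE 0.28, adjusted p = 0.0134) and Nr4a2 at 0.76 (SE 0.22, adjusted p = 0.0433). Of these 2, 1 was called without Vehicle replicate 2 or TC replicate 1 or 2 and 0 without Vehicle replicate 3. Ppargc1a fell at -1.04 (SE 0.26, adjusted p = 0.0196), a call lost without either Vehicle replicate or TC replicate 1 or 2. In edgeR 0 of 6 adrenergic receptor genes were called (1 at an unadjusted p under 0.05 and 1 called by DESeq2), and 0 of 6 G alpha genes (0 and 0).

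Among the 26 tested markers TC alone moved 4 (15.4%), against 11.7% of all genes. Pparg was called in all 5 fits that left out a library. Of the brown markers 2 of 6 fell, against 6.94% of all genes, although the list median was 0.36. These were Prdm16 at -2.14 (SE 0.29, adjusted p = 0.000255), in all 5 fits, and Ppargc1a. The other 4 did not pass, and their mean normalized counts in Vehicle and TC were 1640 and 2141 for Cox8b, 240.4 and 296 for Cidea, 128 and 209.7 for Elovl3, and 16.8 and 25.2 for Ucp1. Of the macrophage markers 2 of 4 could be tested, and Cd68, a lysosomal protein and the most abundant of them in every sample, rose at 1.92 (SE 0.27, adjusted p = 0.000366), against 4.77% of all genes. The summed macrophage markers were 88.8 and 55.3 in Vehicle, 136 and 80.7 in SR-3420, 221, 244 and 232 in TC, 118, 122 and 106 in TC+SR-3420, 95.1, 101 and 75.2 in ETO, and 128, 90.6 and 83.4 in ETO+SR-3420. Ptprc and Emr1, which define the cell type, were at 0 in 3 and 7 samples, and the part of these markers in the fall of Pde3b was not tested. Endothelial markers summed to 11.7 to 45.8, with Kdr the most abundant and the 1 tested marker up with SR-3420 on average, and muscle markers to 37.6 to 171, with Acta1 or Myod1 the most abundant and Myod1 the 1 of 2 tested to rise. Both rises belong to the average over the arms, in which 22.8% of all genes rose.

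Across the 16 samples, the genes whose log2 normalized counts followed each member most closely among 10695 genes were listed as a description, in which group, library and GC content are shared. They were Mmp11 (r = 0.986), Gnb5 (0.981) and Gprc5c (0.972) for Adrb3, and Paqr9 (0.897), Cish (0.874) and Atg101 (0.863) for Adrb1. For Pde3b they were Hipk3 (0.973), Nhsl2 (0.965) and Ppargc1a (0.960), and for Pde3a Map3k12 (0.740), BC017643 (0.697) and Bcdin3d (0.696). The PDE4 genes had Map6 (0.983), Phldb1 (0.955) and Dnm1 (0.954) beside Pde4a, Nono (0.942), Prpf3 (0.929) and Kpnb1 (0.928) beside Pde4b, and Plekha2 (0.856), Rnf19a (0.826) and Btbd3 (0.817) beside Pde4d. Prkar2b was followed by Kif21a (0.976), Prkaa2 (0.975) and Ddhd1 (0.972), and Prkaca by Mmd2 (0.923), Cdo1 (0.919) and Pcca (0.919). No member was among the closest genes of another.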

How the data were processed

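The authors deposited a table of whole-number read counts per RefSeq gene for 16 samples, together with the counted length of each gene in bases, which the authors' counting gave. Per the submitters' processing notes and the study's methods, total RNA was extracted with TRIzol, libraries were made with a TruSeq kit, reads were mapped to mm9 with STAR 2.4.2a, HOMER kept 1 read per position and length, and iRNA-seq counted reads per gene. Keeping 1 read per position can hold down the counts of short, abundant genes. Whether counting used strand is not given in the sources used here, and no member overlaps another gene model of the count table.

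Groups came from the labels. From the counts, differences were tested with edgeR 4.0.16 (TMM, filterByExpr, quasi-likelihood test, 1 model of 6 group means over 16 samples) in 10 comparisons, with Benjamini-Hochberg adjustment over 12786 genes and a threshold of 0.05. edgeR ran in R 4.3.3 with limma 3.58.1, on which it depends. Levels are counts divided by DESeq2 1.42.0 size factors, and per kb by the counted length. Alternatives were DESeq2's size factors, library totals, DESeq2's Wald test, no filter, at least 10 counts in every sample, a replicate block, only the compared groups, each of the 16 samples left out, a log2FC of at least 1, and, chosen after seeing the data, GC offsets, a spline of 5 df per library, fitted alone or together with that block. Adjusted p ranges called alternatives in the report leave out the fits with a block. A sample left alone in its group was assumed to vary like the other groups. The edgeR fits were also run on simulated data, with an outcome that is not reported here and on which no result rests.

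Named genes are all 9 members, at most 4 genes per direction of each pathway list among those past the threshold with a mean of at least 50 normalized counts, the cell type markers, and the 3 genes most alike each member by Pearson r of log2(normalized count + 1). The lists are adrenergic receptors, Gi-coupled antilipolytic receptors, G alpha subunits, adenylyl cyclases, cAMP PDEs, PKA subunits and inhibitors, A-kinase anchoring proteins, desensitization, other effectors and CREB factors, cAMP-induced genes, and markers of 6 kinds of cell. The members and lists were chosen with earlier results of these data known.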

Additional observations from a re-analysis of the deposited data

Results flagged for a closer look

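In 2 genes of the pathway lists, outside the 9 members, the response to SR-3420 differed between arms by the interaction test in edgeR. They are 2.35% of the 85 tested genes of these lists, against 2.51% of all genes, a share near the background that says nothing particular of the pathway. Pde8a, a cAMP-specific PDE, responded more after TC than without an inhibitor by a log2FC of 0.74 (SE 0.17, adjusted p = 0.0373), and Akap13, an anchoring protein, by 0.76 (SE 0.16, adjusted p = 0.0302). With TC alone both were lower than in Vehicle, Pde8a at -0.54 (SE 0.12, adjusted p = 0.00867) and Akap13 at -0.90 (SE 0.12, adjusted p = 0.000190), and with SR-3420 after TC both rose, at 0.65 (SE 0.11, adjusted p = 0.000429) and 1.14 (SE 0.11, adjusted p = 8.38e-06). For Pde8a the interaction call held in 1 of 10 fits that left out a library, that without TC replicate 1, and was lost without any of the other 9 and with no filter or only the compared groups (adjusted p over the alternatives 0.000121 to 0.162). For Akap13 it held in 2 of 10, without TC+SR-3420 replicate 1 or 2, and was lost without any of the other 8 and with only the compared groups (alternatives 6.98e-06 to 0.121). What sets these genes apart was not tested.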

How the results depend on the processing

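Of 1449 alternative values of the members, 1238 kept their direction and their side of the threshold, 43 newly passed it, 48 no longer did and 120 changed sign, 0 of them called in either fit. For list genes that were called, 397 of 3387 values no longer passed and 0 changed sign. By comparison, the members called were, for SR-3420 against Vehicle (0 of 9), 1 with GC offsets; for TC+SR-3420 against TC (2), 0 with a log2FC of at least 1 in size; for ETO+SR-3420 against ETO (3), 0 with only the compared groups and 1 with a log2FC of at least 1; for the mean over the arms (5), 0 with a log2FC of at least 1; for TC+SR-3420 against SR-3420 (2), 1 with library totals, 1 with only the compared groups and 4 with GC offsets; and for ETO+SR-3420 against SR-3420 (0 by edgeR, 2 at an unadjusted p under 0.05), 1 with DESeq2 and 1 with GC offsets. With 1 library left out the counts ranged from 0 to 1 for TC+SR-3420 against TC and for TC against Vehicle, 1 to 5 for ETO+SR-3420 against ETO, 0 to 2 for TC+SR-3420 against SR-3420 and 4 to 6 for the mean. With the replicate block they were 1 for SR-3420 against Vehicle, 4 for TC+SR-3420 against TC, 5 for ETO+SR-3420 against ETO, 6 for the mean, 3 for TC against Vehicle, 4 for TC+SR-3420 against SR-3420 and 1 for ETO+SR-3420 against SR-3420. With GC offsets and the block they were 2, 6 and 4 for SR-3420 against Vehicle, ETO+SR-3420 against ETO and TC against Vehicle, 4 and 1 for TC+SR-3420 and ETO+SR-3420 against SR-3420, and 1 for the TC interaction (Pde4d, -0.51, adjusted p = 0.0469). By the labels the samples share only a number. The study's methods name independent experiments for RNA-seq and do not say that a number marks one. In the data, 35 same-numbered pairs had a mean r of 0.386 (lowest -0.275, 27 over 0.1), against -0.191 for 71 pairs with different numbers. Not every sample correlated best with its own number, which 11 of 16 did, and the 15 pairs numbered 3 ran from 0.429 to 0.774, a hint from the data and not the design. Over all genes, 12786 in the fit reported, the calls, with those past 1.5 times more or fewer in brackets (both meaning GC offsets and the block), were 964 for SR-3420 against Vehicle (1569 with DESeq2, 2438 with the block, 46 with only the compared groups, 2889 with GC offsets, 4145 with both, 306 to 504 with 1 library left out), 4722 for TC+SR-3420 against TC (7185 with the block, 8113 with both) and 3234 for ETO+SR-3420 against ETO (5776 with the block, 1205 with only the compared groups, 5850 with GC offsets, 7245 with both, 1989 to 3198 with 1 library left out). They were 5908 for the mean over the arms (8874 with both), 1497 for TC against Vehicle (3072 with the block, 3129 with GC offsets, 4534 with both, 702 to 1089 with 1 library left out) and 3 for ETO against Vehicle (17 with DESeq2, 6 with the block, 0 with only the compared groups, 22 with GC offsets, 89 with both, 0 to 3 with 1 library left out), and further 585 for TC+SR-3420 against SR-3420 (1204 with DESeq2, 3008 with the block, 78 with only the compared groups, 2179 with GC offsets, 3856 with both, 54 to 401 with 1 library left out) and 1 for ETO+SR-3420 against SR-3420 (0 with library totals, 86 with DESeq2, 0 with no filter, 1838 with the block, 0 with only the compared groups, 97 with GC offsets, 1735 with both, 0 to 12 with 1 library left out). For interactions they were 321 for the TC interaction (809 with DESeq2, 163 with no filter, 1669 with the block, 1366 with GC offsets, 2624 with both, 53 to 179 with 1 library left out) and 0 for the ETO interaction (9 with DESeq2, 3 with the block, 1 with GC offsets, 16 with both). The log2FC that changed sign follow, those of left-out libraries as ranges over all such fits. SR-3420 against Vehicle had sign changes in Pde3a at -0.020 with both, Pde3b at 0.077 with GC offsets and 0.023 with both. Left-out libraries gave Adrb1 from -0.15 to 1.44, Adrb3 from -0.62 to 0.17, Pde3a from -0.030 to 0.48, Pde4b from -0.035 to 0.30. TC+SR-3420 against TC had sign changes in Pde3b at -0.00092 with at least 10 counts in every sample, -0.012 with the block, -0.19 with GC offsets and -0.20 with both. Left-out libraries gave Adrb1 from -0.52 to 0.031, Pde3b from -0.13 to 0.12, Prkar2b from -0.26 to 0.010. ETO+SR-3420 against ETO with left-out libraries gave Adrb1 from -0.39 to 0.11. The mean over the arms had sign changes in Pde3a at 0.0027 with no filter, 0.043 with GC offsets and 0.0076 with both. Left-out libraries gave Adrb1 from -0.21 to 0.32, Pde3a from -0.090 to 0.080. TC against Vehicle had sign changes in Adrb1 at -0.019 with library totals, -0.013 with no filter, -0.025 with the block, -0.25 with GC offsets and -0.25 with both, Pde4a at 0.016 with at least 10 counts in every sample, Pde4b at 0.0021 with GC offsets. Left-out libraries gave Adrb1 from -0.30 to 0.26, Pde4a from -0.17 to 0.17, Pde4b from -0.25 to 0.085, Pde4d from -0.23 to 0.081. ETO against Vehicle had sign changes in Pde3b at -0.15 with GC offsets and -0.18 with both, Pde4a at 0.020 with GC offsets and 0.050 with both. Left-out libraries gave Adrb1 from -0.39 to 0.072, Pde3a from -0.36 to 0.15, Pde3b from -0.26 to 0.17, Pde4a from -0.22 to 0.12, Pde4d from -0.037 to 0.27, Prkar2b from -0.050 to 0.36. TC+SR-3420 against SR-3420 had sign changes in Pde4a at 0.010 with library totals, 0.17 with GC offsets and 0.16 with both. Left-out libraries gave Pde4a from -0.23 to 0.14. ETO+SR-3420 against SR-3420 had sign changes in Pde3a at 0.012 with library totals, 0.14 with GC offsets and 0.23 with both, Pde4a at 0.083 with library totals, 0.25 with GC offsets and 0.25 with both, Pde4d at 0.068 with library totals and 0.055 with the block, Prkar2b at 0.057 with library totals, Prkaca at 0.070 with GC offsets and 0.089 with both. Left-out libraries gave Pde3b from -0.77 to 0.034, Pde4a from -0.20 to 0.18, Pde4d from -0.21 to 0.093, Prkar2b from -0.38 to 0.12. The TC interaction had sign changes in Pde3b at -0.27 with GC offsets and -0.22 with both, Pde4a at 0.089 with library totals, 0.019 with no filter, 0.43 with GC offsets and 0.39 with both, Prkaca at 0.034 with DESeq2's size factors, 0.13 with library totals, 0.034 with DESeq2, 0.065 with no filter, 0.013 with only the compared groups, 0.37 with GC offsets and 0.32 with both. Left-out libraries gave Pde3b from -0.025 to 0.25, Pde4a from -0.23 to 0.15, Prkaca from -0.057 to 0.056. The ETO interaction with left-out libraries gave Pde3a from -0.23 to 0.28, Pde3b from -0.78 to 0.022, Pde4a from -0.14 to 0.24, Pde4d from -0.32 to 0.0090, Prkar2b from -0.61 to 0.0029, Prkaca from -0.090 to 0.10. Of 54 mean levels 52 moved by less than 1 SD under TMM. The causes of these differences were not tested. Groups of 2 or 3 samples and, for Adrb1, low counts limit what could be detected.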
